A study of Arabidopsis thaliana with 15 samples.

Results

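Pollen expression of 5 genes of the endoplasmic reticulum (ER) folding machinery was followed before germination, in culture and after growth through a pistil: the calnexins CNX1 (AT5G61790) and AT5G07340, the calreticulins CRT1a (AT1G56340) and CRT1b (AT1G09210), and SHD (AT4G24190). They were chosen by name, as the probe sets that pair with exactly 1 of these genes, which gave 5 probe sets of 22746 tested, of which 15323 pair with 1 named gene. The study hybridised Arabidopsis pollen RNA to 15 ATH1 arrays, all from wild type Columbia plants. The groups were dry pollen vacuumed from open flowers (4 arrays), pollen held in liquid growth medium for 0.5 h (0.5 h PT, 4 arrays) or for 4 h (4 h PT, 4 arrays), and semi-in vivo pollen tubes (SIV PT, 3 arrays), which by the labels spent 3 h in a cut pistil and then 5 h on solid medium, where the study's methods describe tubes emerging after 3 h and collected after another 3 h on the medium. No group carries a transgene or mutation in the pollen itself.

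The groups are limited as models in several ways. Grains in the 0.5 h PT samples were mostly hydrated or just germinating, and some grains in the 4 h PT samples had not germinated. The SIV PT pistils came from male sterile ms1 plants in the Landsberg background, and tube bundles from many pistils were pooled for each array. Labelling started from 2 µg of total RNA for SIV PT and from 5 µg for the other conditions. SIV PT was cut tube bundles from solid medium, whereas 4 h PT came from liquid medium with its ungerminated grains. RNA input, growth time, medium, the share of grains and passage through a pistil therefore cannot be told apart. The labels call the arrays biological replicates without saying more, so the p-values measure the spread between these samples.

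Calnexin and calreticulin are lectin chaperones of the ER. Both hold newly made glycoproteins whose glycan chain has been trimmed to a single glucose and release them for another round if folding is incomplete, calnexin from the membrane and calreticulin from the lumen. SHD (SHEPHERD) is the HSP90-type chaperone of the plant ER, the counterpart of animal GRP94, and is known for its role in folding proteins of the CLAVATA pathway. Genes of these chaperones belong to the targets of the unfolded protein response, the programme by which a cell raises its folding capacity. Pollen tubes export membrane and wall proteins through the ER as they extend.

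Names came from the array's platform annotation for AT5G07340 and CRT1b. The probe sets of CNX1, CRT1a and SHD could be named only through lists of changed genes in the study's supplement, so counts over the 5 genes are not an independent sample of the family. AT5G07340 is annotated there as a putative calnexin.

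The defining pollen genes were present in all 4 conditions. Of 8 pollen markers listed, 5 were measured and all 5 were expressed in every condition, where expressed means a mean log2 signal of at least 8 (a signal of 256). Their summed signal was 42890 to 46630 in SIV PT and 91290 to 113600 on the other arrays. The sum covers markers that moved differently. Against 4 h PT, PRK2A (log2 change -2.60), AGL18 (-2.07) and BUPS2 (-1.63) were called lower in SIV PT. CNGC18 (-0.19) and ANX1 (0.74, limma adjusted p = 0.0175) were not called. The one measured sperm marker, MGH3, was expressed in every condition (-0.43, limma adjusted p = 0.0784). Of 12 pistil markers, 5 were measured, 0 were expressed in any condition, and their summed signal of 136 to 408 in SIV PT lay across the 187 to 554 of the other arrays. Their log2 changes against 4 h PT ran from -0.50 to 0.86, with 0 called. The highest was CES (limma adjusted p = 0.155), uneven in SIV PT at 15.0 to 264. The one measured green tissue marker, RCA, was not expressed either. The ratio of 3′ to 5′ signal of the GAPDH control was 6.59 to 9.72 in SIV PT and 1.25 to 2.88 elsewhere, and 3 of 6 such ratios separated SIV PT from all other arrays. The part of these array differences in the results was not tested. Since each sample is bulk RNA, fewer cells of a type and less RNA per cell cannot be told apart.

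Of the 5 genes, 4 rose in SIV PT against 4 h PT: CNX1 48.8-fold, CRT1a 12.7-fold, CRT1b 9.67-fold and SHD 3.17-fold. AT5G07340 did not pass the test. On the arrays themselves these 4 genes did not overlap between the conditions, as was so for 15.3% of all probe sets in that direction. A gene was called when limma's log-odds B exceeded 3 and the change was at least 3-fold, and 2.71% of all probe sets were called higher in this comparison. The median log2 change was 3.27 over the 5 genes and -0.07 over all probe sets. All fold changes are on the log2(signal + 64) scale, which understates the change of dim genes. Of the 2 genes named outside the lists of changed genes, CRT1b rose and AT5G07340 did not pass.

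**Figure D1:**
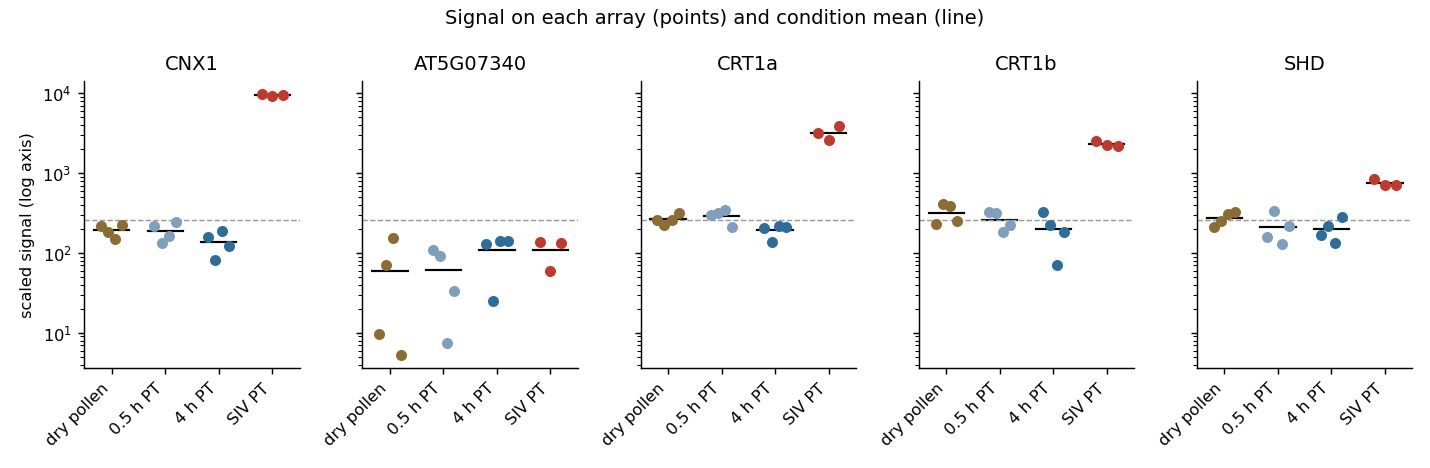
Scaled signal (log axis) of each gene on each of the 15 arrays, by condition; points are arrays, black lines are condition means and the dashed line marks a signal of 256. CNX1, CRT1a, CRT1b and SHD sit above every other array on all 3 SIV PT arrays, while the AT5G07340 arrays overlap across conditions.

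CNX1, the membrane-bound calnexin, had scaled signals of 216, 184, 151 and 225 on the 4 dry pollen arrays. It read 219, 134, 164 and 242 in 0.5 h PT and 158, 81.7, 188 and 122 in 4 h PT. The 3 SIV PT arrays read 9785, 9243 and 9666. The first 12 arrays therefore ranged from 81.7 to 242, and every SIV PT array lay far above them, with no overlap. The means were 194 ± 33.4 (SD, n = 4) in dry pollen, 138 ± 46.0 (SD, n = 4) in 4 h PT and 9565 ± 285 (SD, n = 3) in SIV PT. SIV PT was the only condition in which CNX1 counted as expressed. Against 4 h PT the log2 change was 5.61 (SE 0.21, 95% interval 5.16 to 6.06, limma adjusted p = 3.39e-10), which ranked it number 3 of all 22746 probe sets by rise. The ratio of the mean signals without an offset was 69.6.

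AT5G07340, the other calnexin, was dim everywhere. Its signals were 9.74, 71.2, 153 and 5.24 in dry pollen and 108.5, 92.9, 7.50 and 33.9 in 0.5 h PT. They were 130.2, 25.1, 141 and 141 in 4 h PT and 139, 59.9 and 132 in SIV PT. Arrays of one condition differed by more than the conditions did, and the ranges of all 4 conditions overlapped. No condition reached the level taken as expressed, so the values near background limit what this probe set can show. The log2 change between SIV PT and 4 h PT was 0.05 (SE 0.43, 95% interval -0.86 to 0.96, limma adjusted p = 0.953).

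The calreticulins CRT1a and CRT1b are soluble lumenal partners of calnexin. CRT1a read 263, 224, 258 and 317 in dry pollen and 301, 321, 341 and 211 in 0.5 h PT. In 4 h PT it read 205, 137, 219 and 212. The SIV PT arrays read 3163, 2578 and 3913, all above the other 12 arrays. The mean rose from 193 ± 38.1 (SD, n = 4) in 4 h PT to 3218 ± 669 (SD, n = 3) in SIV PT, a log2 change of 3.67 (SE 0.20, limma adjusted p = 8.28e-09). CRT1a met the level taken as expressed in 3 conditions, all but 4 h PT, where its mean was under 256 with no change that passed the test.

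CRT1b read 229.9, 413, 390.2 and 253 in dry pollen and 325, 319.9, 181 and 225 in 0.5 h PT. The 4 h PT arrays, at 326.5, 226, 70.9 and 183, ranged most widely on the log scale. SIV PT gave 2534, 2269 and 2207, again above every other array. The mean was 202 ± 106 (SD, n = 4) in 4 h PT against 2337 ± 174 (SD, n = 3) in SIV PT, a log2 change of 3.27 (SE 0.31, limma adjusted p = 1.16e-06). CRT1b was expressed in dry pollen and SIV PT. Its probe set was named by the platform annotation and not through a list of changed genes. The 5 genes were still chosen with earlier results of these data known.

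SHD had the smallest rise among the 4 genes that passed. It read 209, 253, 309.6 and 329 in dry pollen and 161, 334, 129 and 219 in 0.5 h PT. The 4 h PT arrays read 169, 219.5, 134 and 280. The SIV PT arrays, at 850.3, 716 and 712, were all above the other 12. The mean was 275 ± 54.6 (SD, n = 4) in dry pollen, 201 ± 63.7 (SD, n = 4) in 4 h PT and 759 ± 78.9 (SD, n = 3) in SIV PT. The log2 change against 4 h PT was 1.67 (SE 0.25, limma adjusted p = 0.000139, B = 3.56), just past both thresholds. The call was lost under quantile normalization (log2 change 1.27), with a smaller (16) or a doubled offset, and in 8 of 15 fits that left out 1 array. All of these kept the direction. The libraries whose removal ended the call were dry pollen replicate 2, 0.5 h PT replicate 4, 4 h PT replicates 1, 2 and 3, and each SIV PT replicate, with log2 changes between 1.54 and 1.80 over the 15 fits.

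The same SIV PT arrays were also compared with dry pollen and with 0.5 h PT, so these results share samples with the one above. Against dry pollen, CNX1 (log2 change 5.23), CRT1a (3.30) and CRT1b (2.67) were called higher, with limma adjusted p of 5.21e-10, 7.41e-09 and 5.75e-06, where 4.08% of all probe sets were. SHD had a log2 change of 1.29 (SE 0.25, limma adjusted p = 0.00104) and missed both thresholds, at 2.45-fold and B = 0.75, although the groups did not overlap, as was so for 17.6% of all probe sets in that direction. AT5G07340 gave 0.62 (SE 0.43, limma adjusted p = 0.359). Against 0.5 h PT, CNX1 (5.27), CRT1a (3.19), CRT1b (2.90) and SHD (1.64) were called higher on the log2 scale, where 3.86% of all probe sets were. The SHD call there was lost in 11 of 15 fits that left out 1 array, all but those without dry pollen replicate 1, 0.5 h PT replicate 2 or 4 h PT replicate 3 or 4, with log2 changes between 1.48 and 1.83. AT5G07340 again did not pass (0.54, limma adjusted p = 0.444).

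Culture in liquid medium gave no call for any of the 5 genes by limma. Between dry pollen and 4 h PT the log2 changes were -0.38 for CNX1, -0.36 for CRT1a, -0.60 for CRT1b, -0.38 for SHD and 0.57 for AT5G07340, with adjusted p from 0.381 to 0.614, where 0.765% of all probe sets were called in either direction. The 95% interval of CRT1a ran from -0.76 to 0.04 and that of CRT1b from -1.21 to 0.00. All 4 CRT1a arrays of 4 h PT lay below all 4 dry pollen arrays, a pattern seen in 3.92% of all probe sets. From dry pollen to 0.5 h PT the changes lay between -0.34 (SHD) and 0.11 (CRT1a), where 0.0615% of all probe sets were called. From 0.5 h PT to 4 h PT they lay between -0.47 (CRT1a) and 0.48 (AT5G07340), where 0.510% were called. In order of level, SIV PT stood first for CNX1, CRT1a, CRT1b and SHD, and none of the neighbours in the order of the 3 remaining conditions differed beyond the limma thresholds.

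**Figure D2:**
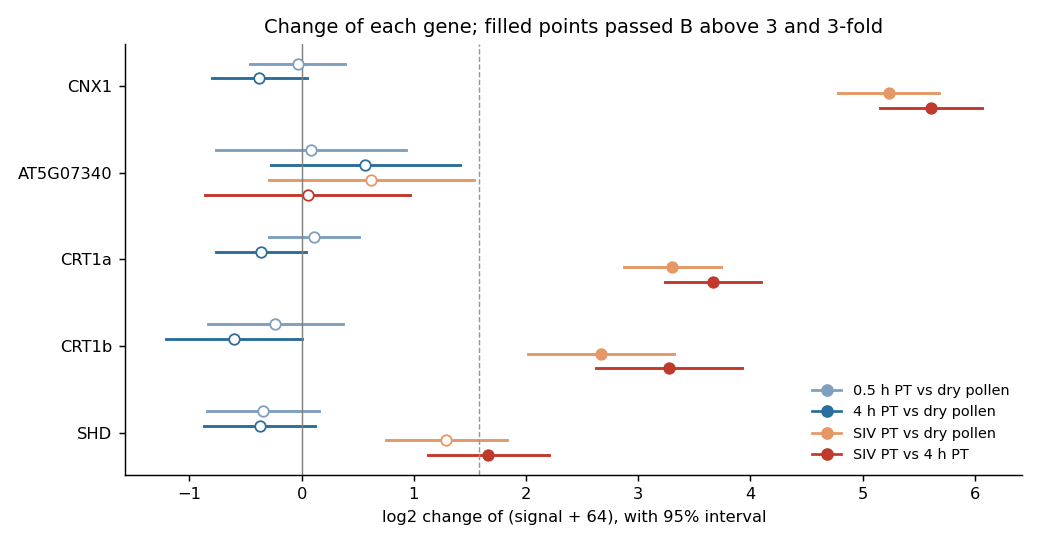
Log2 change of (signal + 64) with its 95% interval for each gene in 4 comparisons; filled points passed B above 3 and 3-fold, the solid line is 0 and the dashed line is 3-fold. Both comparisons with SIV PT are far to the right for CNX1, CRT1a and CRT1b, SHD lies at the threshold, and the culture comparisons stay near 0.

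The rises were unequal. Because signals of different probe sets are not on one scale, the difference in log2(signal + 64) between a pair of genes was taken within each array. It was then compared between SIV PT and the other 12 arrays for all 10 pairs of the 5 genes. The 6 pairs of the 4 genes expressed in some condition are described. AT5G07340 was near background on all arrays, so its pairs are left out of the description. CNX1 reached the level taken as expressed only in SIV PT, so its pairs are kept through the condition where it is high. Its gains depend on the offset, and their p-values are given as description only. CNX1 gained on CRT1a by 1.98, on CRT1b by 2.42 and on SHD by 3.84, each with no overlap between the 3 SIV PT arrays and the rest. Each had a two-sided exact permutation p of 0.0044, the smallest this design allows, and 0.00549 after Benjamini-Hochberg adjustment over the 10 pairs. CRT1a gained on SHD by 1.86 and CRT1b by 1.42, with the same exact p. In these values CNX1 was ahead of both calreticulins, and both calreticulins were ahead of SHD. The calreticulins themselves differed by 0.44 (exact p = 0.198), with within-array values of 0.18 to 0.81 in SIV PT inside the -0.73 to 1.07 of the other arrays. Against 4 h PT alone, 5 of 6 pairs did not overlap, but 3 arrays against 4 cannot give an exact p below 0.0571.

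**Figure D3:**
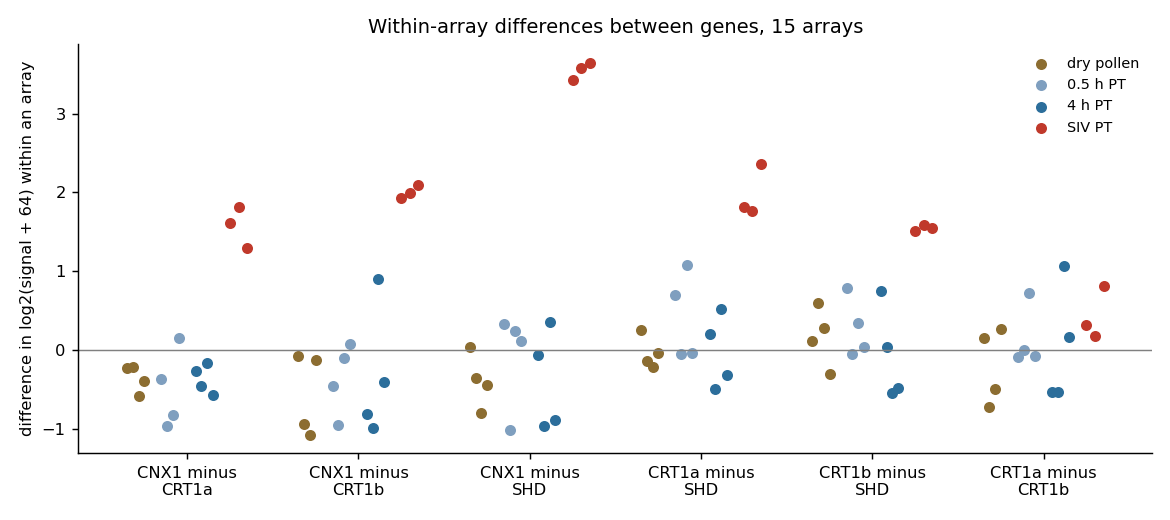
Difference in log2(signal + 64) between 2 genes within each of the 15 arrays, for the 6 pairs of CNX1, CRT1a, CRT1b and SHD, by condition. The 3 SIV PT arrays stand at 1.29 to 1.82 for CNX1 minus CRT1a and at 3.43 to 3.65 for CNX1 minus SHD, above all other arrays, but lie among the others for CRT1a minus CRT1b.

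Other genes of the ER folding pathway were read from lists named for their roles. In the ER HSP70 system, 4 of 7 measured probe sets (10 genes listed) rose in SIV PT against 4 h PT and 0 fell by limma. Their median log2 change was 3.40, and 2.71% of all probe sets were called higher in this comparison. BIP3, an ER-resident HSP70, went from 63.0 ± 50.4 (SD, n = 4) to 12070 ± 626 (SD, n = 3), a log2 change of 6.67 (limma adjusted p = 5.16e-09) that ranked number 1 of all probe sets. The BIP1 probe set, whose type marks it as shared by similar transcripts and which cannot be read as a single gene, changed by 4.60 on the log2 scale from 1166 to 29600. SDF2, which works beside BiP in ER quality control, changed by 4.58, and AT4G16660, annotated as a putative HSP70, by 3.40. The measured ER J-domain co-chaperones did not reach 3-fold. ERDJ3B had a log2 change of 1.35 (limma adjusted p = 2.65e-05, B = 5.67). ERDJ2A and ERDJ2B had 1.12 each (limma adjusted p = 0.0965 and 0.00578), and ERDJ2B was not expressed in any condition. No probe set paired by name with ERDJ3A or P58IPK alone. At an adjusted p under 0.05 alone 6 of the 7 probe sets were higher, against 12.9% of all probe sets. Of the 5 probe sets named outside the lists of changed genes, 2 rose.

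Among protein disulfide isomerases and their oxidases, 5 of 8 measured probe sets (12 genes listed) rose and 0 fell by limma, with a median of 2.16. Over all probe sets 2.71% were called higher. PDIL1-2 and PDIL1-1, which form and shuffle disulfide bonds, had log2 changes of 4.91 and 4.79, with mean signals going from 102 to 4193 and from 274 to 9165. ERO1, the oxidase that recharges them, had 3.22 and PDIL1-3 had 2.42. Of the 4 probe sets named outside the lists of changed genes, 1 rose. With quantile normalization 3 of 8 passed, but the share of all probe sets passing in that setting was not counted.

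ER-associated degradation, which removes proteins that fail to fold, moved in part. Of 7 probe sets for 6 genes (10 listed), 2 rose and 0 fell by limma, where 2.71% of all probe sets were called higher. The median was 1.10. The 2 that rose belonged to the derlins, proteins of the channel through which substrates leave the ER: one DER1 probe set had a log2 change of 3.25 and DER2.1 had 3.18. A second DER1 probe set gave -0.24 at signals near background, so the probe sets of DER1 disagreed. DER2.2 had 0.19. None of these names came from the lists of changed genes.

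Of 7 measured regulators of the unfolded protein response (10 listed), 2 rose and 0 fell by limma, with a median log2 change of 0.44. For comparison, 2.71% of all probe sets were called higher. Of the 5 named outside the lists of changed genes, which leave out NAC062 and IRE1B, 1 rose and the median was 0.00. NAC062, a membrane-tethered transcription factor, had a log2 change of 2.72, and BZIP60, the transcription factor whose RNA is spliced by IRE1, had 2.09, from 2136 to 9222. BZIP28 (0.44) and BZIP17 (-0.60) did not pass, and neither did the RNase sensor IRE1B (1.10, limma adjusted p = 0.00152). BZIP17 was not expressed in any condition, which limits what its probe set can show. The array probes the total BZIP60 transcript and does not separate its spliced form.

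The list of glycan attachment and trimming held the steps that make and shape the chain read by calnexin and calreticulin. Of 19 genes listed, 6 were measured, and their median was -0.19. By limma 0 of these 6 passed in either direction, where 2.71% of all probe sets were called higher. At an adjusted p under 0.05 alone, 1 was higher and 1 lower, where 12.9% of all probe sets were higher and 9.04% lower. The mannosidase MNS3 had a log2 change of 1.36 at 2.57-fold (limma adjusted p = 0.000144). DAD2, an oligosaccharyltransferase subunit, had -0.84 (limma adjusted p = 0.00264). The oligosaccharyltransferase subunits STT3A, OST1A and OST1B were not expressed in any condition, with log2 changes from -0.58 to -0.17. The folding sensor EBS1 and the third calreticulin, CRT3, were not read because no probe set paired with them alone by name.

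HSP90 proteins outside the ER lineage were measured by 2 probe sets (6 genes listed). Of these 1 rose in SIV PT against 4 h PT, where 2.71% of all probe sets were called higher. Both HSP90 probe sets were named only through the lists of changed genes, so the count is not independent of their change. HSP90-1, a cytosolic heat-inducible member, had a log2 change of 3.62 between 4 h PT and SIV PT (limma adjusted p = 6.36e-05), and HSP90-2 had 2.21, which did not pass. Unlike the 5 ER chaperone genes, HSP90-1 was also called higher in 4 h PT than in dry pollen, with a log2 change of 3.13 (limma adjusted p = 0.000925), where 0.717% of all probe sets were, and its 4 h PT signal of 2105 ± 2102 (SD, n = 4) was very uneven between arrays. Leaving out 4 h PT replicate 1 or any SIV PT replicate ended the call of HSP90-1 in SIV PT, and leaving out any dry pollen replicate or 4 h PT replicate 3 ended its call in 4 h PT, as did the replicate number as a block. In the liquid medium NAC062 also rose, by 2.24 on the log2 scale (limma adjusted p = 3.71e-05).

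**Figure D4:**
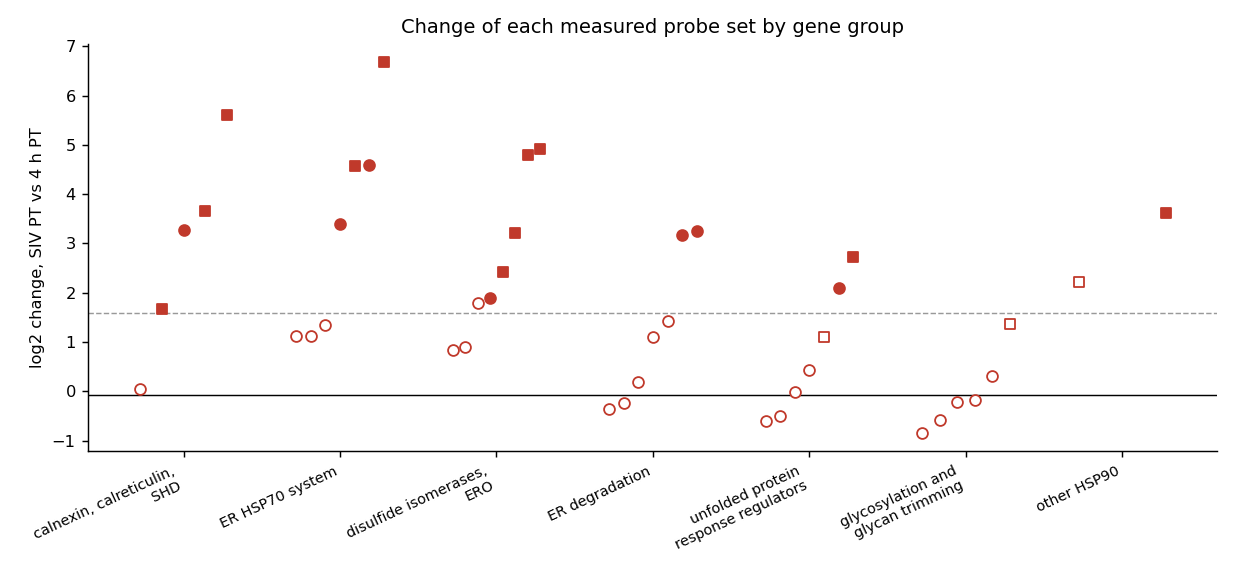
Log2 change between SIV PT and 4 h PT for each measured probe set, by gene group; filled symbols passed B above 3 and 3-fold, squares were named only through lists of changed genes, the solid line is the median of all probe sets (-0.07) and the dashed line is 3-fold. The calnexin, calreticulin and SHD group reaches up to 5.61, the ER HSP70 system 6.67 and the disulfide isomerases 4.91. The glycosylation group stays between -0.84 and 1.36.

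The genes most like the 5 in pattern were ranked by Pearson r over the 15 arrays with the mean of the 5 standardised profiles. Since the arrays split into SIV PT and the rest, such an r mainly describes the height of 3 arrays over 12, and it is given as a description. AT5G07340, near background, weighs as much in this mean as each other gene. Its r with the others was 0.245 to 0.28, so the order among close values partly follows a dim signal. The highest named probe sets were RAB1C, a small GTPase of the Rab family (r = 0.967), BIP3 (0.965), AT2G42950 (0.964), PDIL1-1 (0.963) and DER1 (0.962). They were followed by the metal transporter IRT3 (0.961), AT1G05350 (0.961), the remorin family gene AT5G23750 (0.960), the prolyl 4-hydroxylase-type oxygenase AT1G20270 (0.959) and the jasmonate repressor JAZ1 (0.957). RAB1C had a mean signal of 593 in 4 h PT and of 2549 in SIV PT, and JAZ1 had 23.6 and 1012. BIP1 was the likest to CNX1 (0.99) and to CRT1a (0.988). PPC3, a phosphoenolpyruvate carboxylase, headed the named probe sets for CRT1b (0.968), and AT1G42480 those for SHD (0.958). No probe set reached an r of that size with AT5G07340, for which CLUB was highest (0.741).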

How the data were processed

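RNA of 15 pollen samples was hybridised to Affymetrix ATH1 arrays by the authors, who scaled each array in GCOS and deposited linear signal intensities with a common trimmed mean. No version was given in the sources used here. Array numbers limit the precision. Here, 64 control probe sets were removed, and log2(intensity + 64) was fitted with limma 3.58.1 (R 4.3.3; lmFit and eBayes, all 15 arrays, 6 comparisons, Benjamini-Hochberg over 22746 probe sets), with calls at B above 3 and 3-fold. Probe sets were named through the platform annotation, the study's supplement and RefSeq gene tables (TAIR10.1); 6764 had no name, 507 several and 152 conflicting ones. Gene pairs were compared by exact permutation tests (SciPy). The scripts were tested on simulated data. Alternatives were quantile or median scaling, a smaller and a doubled offset, a filter, a variance trend, other calling rules, a replicate block and leaving out each array. Every member was named in the text. Of each pathway list, up to 4 called probe sets with the largest change in SIV PT against 4 h PT were named, and other list members were named after their values were seen. The 10 likest genes to the mean and the 3 likest to each gene were ranked. The members and lists were chosen with earlier results of these data known.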

Additional observations from a re-analysis of the deposited data

Results flagged for a closer look

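The AT5G07340 signal of 4 h PT replicate 2, 25.1, stood apart from the other 3 arrays of that condition, which read 130.2, 141 and 141. It was 1 of 15 groups of 4 arrays examined for a single array far from the rest, a rule that chance meets in about 1 in 20 groups. All 4 values are below the level taken as expressed.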

How the results depend on the processing

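CNX1, CRT1a and CRT1b kept their calls in SIV PT against all 3 other conditions in 9 alternative settings and in 15 fits that left out 1 array each. Against 4 h PT their log2 changes ranged over the left-out arrays from 5.46 to 5.73, from 3.52 to 3.81 and from 2.98 to 3.49. The SHD call against 4 h PT was lost under quantile normalization (1.27) and a smaller (1.88) or larger (1.45) offset, and against 0.5 h PT likewise (1.16, 1.85 and 1.42). The cause was not tested. No change turned direction among called values. Arrays with the same replicate number were only weakly alike: over 21 such pairs, deviations correlated between -0.02 and 0.04. Still, 9 of 15 arrays correlated best with their own number. Whether the numbers pair the arrays was not tested. With the replicate number as a block, the log2 change of SHD against 4 h PT was 1.75 and its call held. Signals near background limit AT5G07340 and the dim listed genes. Requiring B above 3 alone, chosen after seeing the data, added MNS3 of the glycan list and ERDJ3B of the ER HSP70 list against 4 h PT. The share of all probe sets that pass this rule was not counted, so no list count is read from it.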
